A study of Mus musculus with 9 samples.

Results

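Rab GTPases are the small GTP-binding proteins that mark the membranes of the cell and direct the traffic between them. The genes described here are the rows of the deposited gene table named *Rab* followed by a number and at most a letter and a digit, which found 58 of 30588 genes. They were measured by RNA-Seq in DCs grown for 6 days from bone marrow with GM-CSF and selected for CD11c with magnetic beads, from C57BL/6J mice. WT replicates 3 to 7 (5 cultures) were compared with 4 cultures, replicates 3, 4, 6 and 7, from mice lacking *Gnas* in CD11c-expressing cells (Δ*Gnas*, labelled GNAS_KO). *Gnas* encodes Gαs, the G protein subunit that stimulates adenylyl cyclase to make cAMP. In Δ*Gnas* mice Cre is driven by the CD11c promoter and the *Gnas* alleles are floxed, so cells that had not expressed Cre kept the gene. The labels give both sexes in both genotypes and no age.

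A Rab is switched on by a guanine nucleotide exchange factor (GEF), which loads GTP, and switched off by a GTPase-activating protein (GAP), and only the GTP-bound form holds effectors such as tethers and motor adaptors. The protein carries prenyl groups that Rab escort protein and a geranylgeranyl transferase attach, and GDP dissociation inhibitors (GDIs) carry the inactive form through the cytosol. In DCs, Rabs guide the uptake, degradation and recycling of antigen and of MHC molecules, and the release of cytokines and vesicles.

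The libraries held 34252701 to 49427934 estimated counts. Levels are given as TPM, relative abundances that are scaled for transcript length and can be compared between genes. *Gnas* lay at 404 to 532 TPM in WT and at 48.0 to 63.6 TPM in Δ*Gnas* DCs, lower in each library so labelled. Markers of DCs differed in level. In every library *Itgax*, which encodes CD11c, was at 88.3 TPM or above and *Cd74*, the MHC class II chaperone, at 9128 TPM or above. *Flt3* was at 2.65 to 11.7 TPM in WT, and *Xcr1* at 0.0974 to 0.293 TPM in WT and 0.654 to 8.79 TPM in Δ*Gnas* DCs. The macrophage marker *Lyz2* was at 19443 TPM or above in every library. WT replicate 3 stood apart, with 1.39% of its TPM in mitochondrially encoded genes against 5.86 to 8.55% in the other libraries. WT replicate 7, labelled female, had 21.3 TPM of the Y-linked gene *Ddx3y*, so its sex label was not borne out. Results are therefore also given without each of these libraries.

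The levels of the Rab genes summed to 2440 to 3039 TPM in WT and to 2428 to 2671 TPM in Δ*Gnas* DCs, and the ranges overlapped. By mean over the 9 libraries, 6 members were above 100 TPM, 32 above 10 TPM, 11 between 1 and 10 TPM and 15 below 1 TPM. The 10 highest members held 62.4 to 66.7% of the summed Rab level of a library. *Rab7*, the Rab of late endosomes and lysosomes, was the highest member in 9 of 9 libraries and held 17.1 to 22.8% of it.

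**Figure D1:**
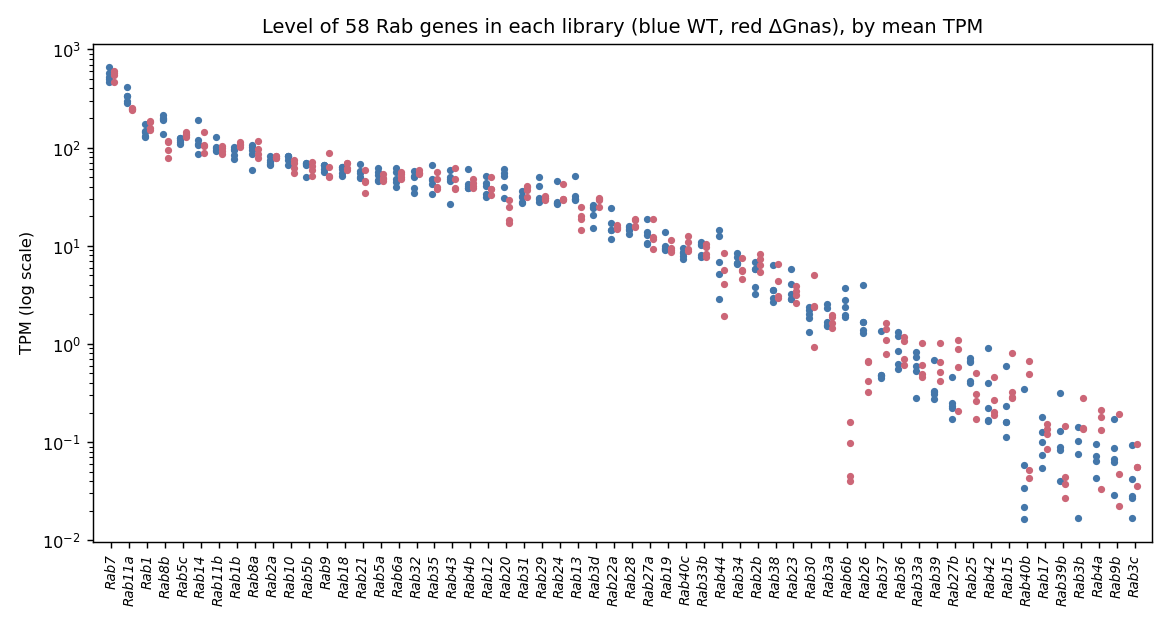
Level of each of the 58 Rab genes in TPM (log axis), ordered by the mean over 9 libraries. Each point is a library, WT in blue and Δ*Gnas* in red, and values of 0 are not drawn (3 members). *Rab7* lies above the others in every library, and the red points of *Rab6b* lie below 0.2 TPM, far under its blue points.

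*Rab7* was at 518, 577, 466, 668 and 501 TPM in WT replicates 3 to 7 and at 466, 544, 572 and 597 TPM in Δ*Gnas* replicates 3, 4, 6 and 7. The genotypes spanned nearly the same range. In the GENCODE annotation *Rab7* shares 18.4% of its 31-base words with other genes, chiefly the pseudogene *Rab7-ps1*. Kallisto divides reads between such copies where both are in its reference, so the level of *Rab7* may be uncertain. The share does not measure the size of that uncertainty. *Rab11a*, the Rab of slow recycling, came next by the mean over all libraries, and then *Rab1*, which serves transport from the ER to the Golgi. The order of *Rab1* and *Rab8b* differed between genotypes. Their means were 144 and 187 TPM in WT and 170 and 101 TPM in Δ*Gnas* DCs.

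*Rab1* was at 129.96, 146, 127, 174 and 145 TPM in WT replicates 3 to 7 and at 157, 153, 181 and 189 TPM in Δ*Gnas* replicates 3, 4, 6 and 7. *Rab1b*, its close relative, was at 102, 83.7, 96.4, 94.0 and 76.3 TPM in WT and at 102, 106, 109 and 113 TPM in Δ*Gnas* DCs in the same order. Both genes tended to the higher values in Δ*Gnas* DCs, with overlap between the genotypes, and neither passed the test (*Rab1b* log2 fold change 0.26 ± 0.10 (SE), adjusted p = 0.154).

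The endosomal Rabs followed. *Rab5c*, a Rab of early endosome fusion, was at 107.5, 119.5, 126, 126 and 114 TPM in WT replicates 3 to 7 and at 138, 129.6, 134 and 144 TPM in Δ*Gnas* replicates 3, 4, 6 and 7. *Rab14*, which acts between the Golgi and endosomes, was at 191, 109, 119.8, 105 and 85.3 TPM in WT and at 144, 88.4, 103 and 105 TPM in Δ*Gnas* DCs. The values of *Rab5c* did not overlap in TPM but did after scaling by TMM, the normalization used for the test, and it did not pass that test (adjusted p = 0.434). WT replicate 3 was the highest library for *Rab14* and the lowest WT library for *Rab5c*.

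The remaining members of the 10 highest that did not pass the test belong to secretion, recycling and the ER. *Rab11b*, a second Rab of slow recycling, was at 128, 93.8, 99.6, 102 and 91.4 TPM in WT replicates 3 to 7 and at 104, 85.5, 92.2 and 98.2 TPM in Δ*Gnas* replicates 3, 4, 6 and 7. *Rab8a*, which carries vesicles to the plasma membrane and the cilium, was at 85.5, 102, 94.4, 106 and 58.4 TPM in WT and at 116, 78.1, 97.5 and 86.8 TPM in Δ*Gnas* DCs. *Rab2a*, which acts between the ER and the Golgi, was at 82.3, 68.3, 71.4, 74.1 and 66.4 TPM in WT and at 79.2, 82.8, 78.2 and 82.4 TPM in Δ*Gnas* DCs. The genotypes overlapped for all 3 genes. From *Rab5c* to *Rab2a*, members 5 to 10 by mean level, the ranges of neighbours in the order overlapped, so that their order is not set by these libraries.

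In all, 5 Rab mRNAs were lower in Δ*Gnas* than in WT DCs: *Rab6b* of the Golgi, *Rab20* of phagosomes and endosomes, and *Rab8b*, *Rab13* and *Rab26* of the routes to the plasma membrane. None was higher. Of the 58 members, 45 passed a filter of over 1 CPM, a count relative to library size, in 3 or more libraries and were tested by edgeR's quasi-likelihood test, with p adjusted over all 11862 genes tested, and changed means an adjusted p under 0.05. The 5 lower members are 11.1% of those tested, against 4.15% of all genes tested, and the 0 higher members stand against 5.41% of all genes. In either direction the share was 11.1% against 9.56%, so that the share of Rabs that changed lay near that of all genes. Of the 5, 3 fell by over 2-fold (2.13% of all genes did): *Rab6b*, *Rab26* and *Rab20*. *Rab6b* and *Rab26* passed the filter through WT alone, so these counts hold genes that could be tested only because WT was high. With a filter of over 5 CPM neither was tested. Then 3 of 37 Rabs tested were lower, against 371 of 9124 genes.

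At an unadjusted p under 0.05, 4 Rabs were higher (8.89%, against 12.6% of all genes tested) and 8 lower (17.8%, against 11.1%). By other tools, edgeR's exact test, DESeq2 and limma-voom called 0 higher and 5, 6 and 5 lower. Of all 11862 genes tested, these tools called 814, 952 and 605 higher and 650, 817 and 493 lower. The median log2 fold change of the 45 members was -0.04, against -0.0043 over all genes. Of the 40 members that did not pass, 38 had a log2 fold change within 0.5 of 0. After TMM scaling, WT and Δ*Gnas* values were fully separate for 6 of the 45 members (13.3%, against 11.9% of all genes tested), the 5 called members and *Rab11a*.

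**Figure D2:**
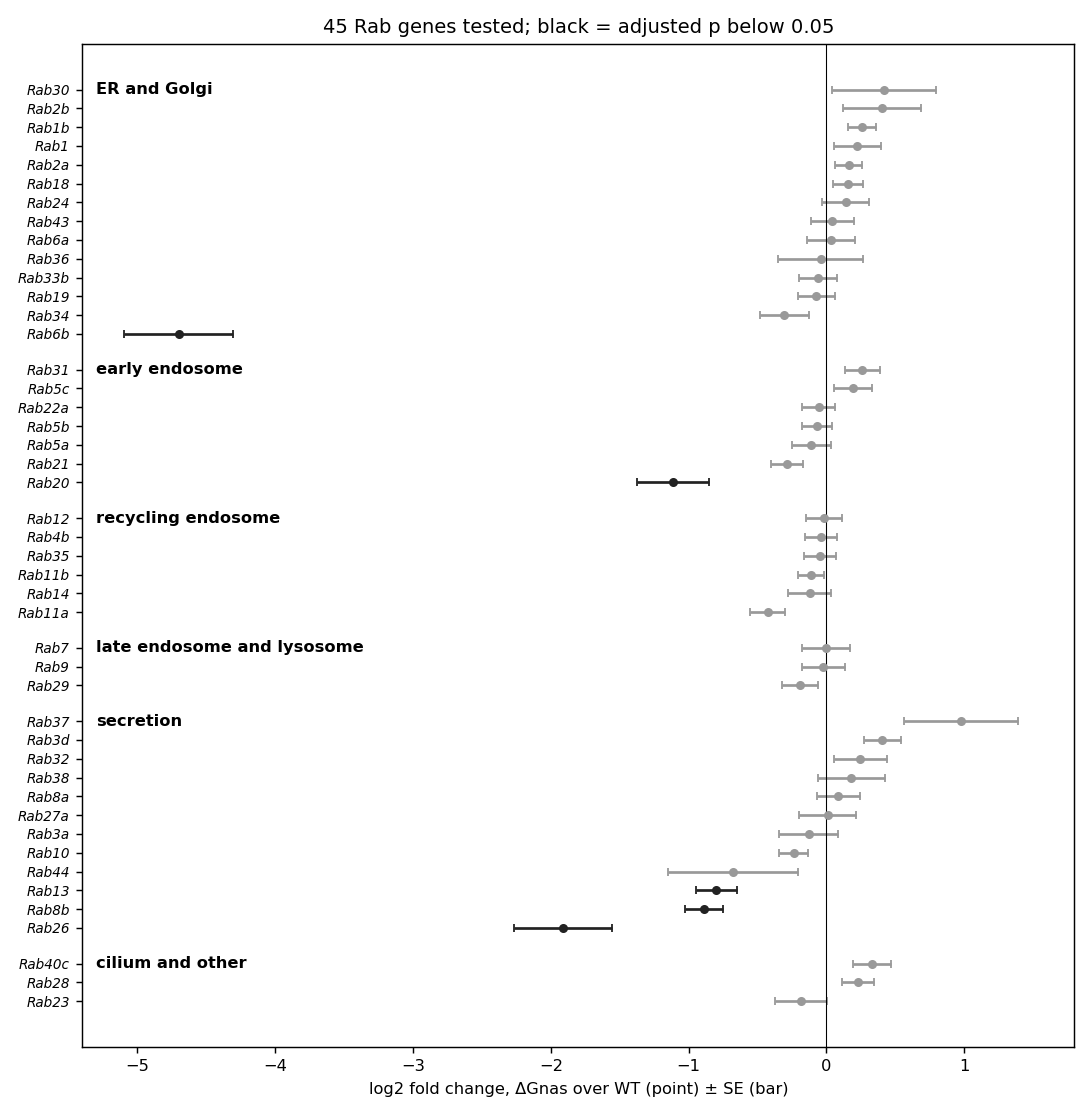
Log2 fold change of Δ*Gnas* over WT (point) with its standard error (bar) for the 45 Rab genes tested, grouped by the membrane they act on. The 5 members with an adjusted p below 0.05 (black) lie to the left of 0, from -0.80 for *Rab13* to -4.70 for *Rab6b*, and the others (grey) lie around 0.

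Among the 14 tested Rabs of the ER and Golgi, only *Rab6b* passed the test. *Rab6b* is a form of Rab6, which drives retrograde transport through the Golgi, and is known as the form enriched in the brain. The gene lies on chromosome 9 from 103111787 to 103185276 (GRCm38, plus strand). It was at 3.71, 2.81, 2.37, 1.99 and 1.89 TPM in WT replicates 3 to 7 and at 0.0448, 0.160, 0.0398 and 0.0978 TPM in Δ*Gnas* replicates 3, 4, 6 and 7. Each WT library exceeded each Δ*Gnas* library by more than 10-fold. The means were 2.55 ± 0.739 (SD, n = 5) and 0.0857 TPM, and the log2 fold change was -4.70 ± 0.40 (SE, adjusted p = 0.00023).

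*Rab6b* was a low mRNA, and it entered the test through WT alone: it had over 1 CPM in 5 of 5 WT and 0 of 4 Δ*Gnas* libraries. Its estimated counts were 81 to 183 in WT and 2 to 8 in Δ*Gnas* libraries. As deposited, these are TPM times a factor of the library, and not numbers of reads. The size of the change depended on the scale, and was -1.69 on log2(TPM + 1). Without WT replicate 3 it was -4.62 (adjusted p = 0.00052) and without WT replicate 7 -4.75 (adjusted p = 0.0011). Of its 31-base words 0.239% occur in other genes. *Rab6a*, the common form, was at 40.1 to 62.1 TPM in WT and 47.8 to 56.2 TPM in Δ*Gnas* DCs.

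Among the 7 tested Rabs of early endosomes, *Rab20* passed the test. *Rab20* acts in the maturation of phagosomes and endosomes. It lies on chromosome 8 from 11453518 to 11478710 (GRCm38, minus strand). It was at 39.8, 51.5, 30.4, 60.0 and 55.6 TPM in WT replicates 3 to 7 and at 25.1, 17.2, 29.4 and 18.4 TPM in Δ*Gnas* replicates 3, 4, 6 and 7. The genotypes did not overlap, although WT replicate 5 and Δ*Gnas* replicate 6 were close. *Rab20* fell by 1.11 ± 0.26 (SE) on the log2 scale (adjusted p = 0.028).

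This was the call that depended on single libraries. Leaving out WT replicate 4 or 7 gave an adjusted p of 0.059 or 0.051, and leaving out Δ*Gnas* replicate 4 or 7 gave 0.081 or 0.086, with log2 fold changes of -1.27 to -0.98 over all libraries left out. Without WT replicate 3 the log2 fold change was -1.23 (adjusted p = 0.024). *Rab20* shares 24.0% of its 31-base words with other genes, chiefly *E230013L22Rik* on the opposite strand, and the sources do not state whether strand was used in counting, so reads of the shared stretch cannot be assigned with certainty.

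Of the 12 tested Rabs of secretion and plasma membrane transport 3 fell, where 4.15% of all genes did. *Rab8b*, which carries vesicles from the Golgi and recycling endosomes to the plasma membrane, was by far the most abundant Rab that changed. It lies on chromosome 9 from 66843664 to 66919687 (GRCm38, minus strand). Its levels were 194, 216, 190, 198 and 137 TPM in WT replicates 3 to 7 and 114, 78.2, 116 and 94.7 TPM in Δ*Gnas* replicates 3, 4, 6 and 7. By TPM, WT replicate 7 was the lowest WT library and lay above each Δ*Gnas* library. The TMM factor was lowest for WT replicate 7 (0.8251) and highest for WT replicate 3 (1.212). The order of the WT libraries can therefore differ on the scale of the test. *Rab8b* fell by 0.89 ± 0.14 (SE) on the log2 scale (adjusted p = 0.0054), to a level 0.540-fold that of WT. Without WT replicate 3 the log2 fold change was -0.94 (adjusted p = 0.0057) and without WT replicate 7 also -0.94 (adjusted p = 0.0085).

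*Rab13*, known for the assembly of tight junctions in epithelia and for transport to the plasma membrane, lies on chromosome 3 from 90213695 to 90226385 (GRCm38, plus strand). It was at 51.2, 29.6, 31.9, 29.4 and 29.9 TPM in WT replicates 3 to 7 and at 24.8, 14.5, 20.2 and 18.9 TPM in Δ*Gnas* replicates 3, 4, 6 and 7. By TPM, WT replicate 3 stood well above the other WT libraries, which lay between 29.4 and 31.9 TPM. Its TMM factor was the highest (1.212), so this gap can be smaller on the scale of the test. *Rab13* fell by 0.80 ± 0.15 (SE) on the log2 scale (adjusted p = 0.0103), and the log2 fold change was -0.71 ± 0.14 (SE) without WT replicate 3 (adjusted p = 0.019). Without WT replicate 7 it was -0.79 (adjusted p = 0.026). No 31-base word of *Rab13* occurs in another gene.

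*Rab26*, a Rab of secretory granules and synaptic vesicles, lies on chromosome 17 from 24527241 to 24534210 (GRCm38, minus strand). It was at 3.98, 1.66, 1.69, 1.40 and 1.30 TPM in WT replicates 3 to 7 and at 0.673, 0.417, 0.326 and 0.652 TPM in Δ*Gnas* replicates 3, 4, 6 and 7. WT replicate 3 was again the highest, and the genotypes did not overlap. *Rab26* fell by 1.91 ± 0.36 (SE) on the log2 scale (adjusted p = 0.0105), and the log2 fold change was -1.63 (adjusted p = 0.017) without WT replicate 3. Without WT replicate 7 it was -1.99 (adjusted p = 0.019). On log2(TPM + 1) it was -0.93.

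Like *Rab6b*, *Rab26* had over 1 CPM in 5 WT and 0 Δ*Gnas* libraries, so that it could be tested only because WT was high. Its gene overlaps *Traf7* on the same strand and genes annotated on the opposite strand, and 7.28% of its 31-base words occur in other genes, chiefly *Traf7*, so a part of these low values may belong to its neighbours.

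**Figure D3:**
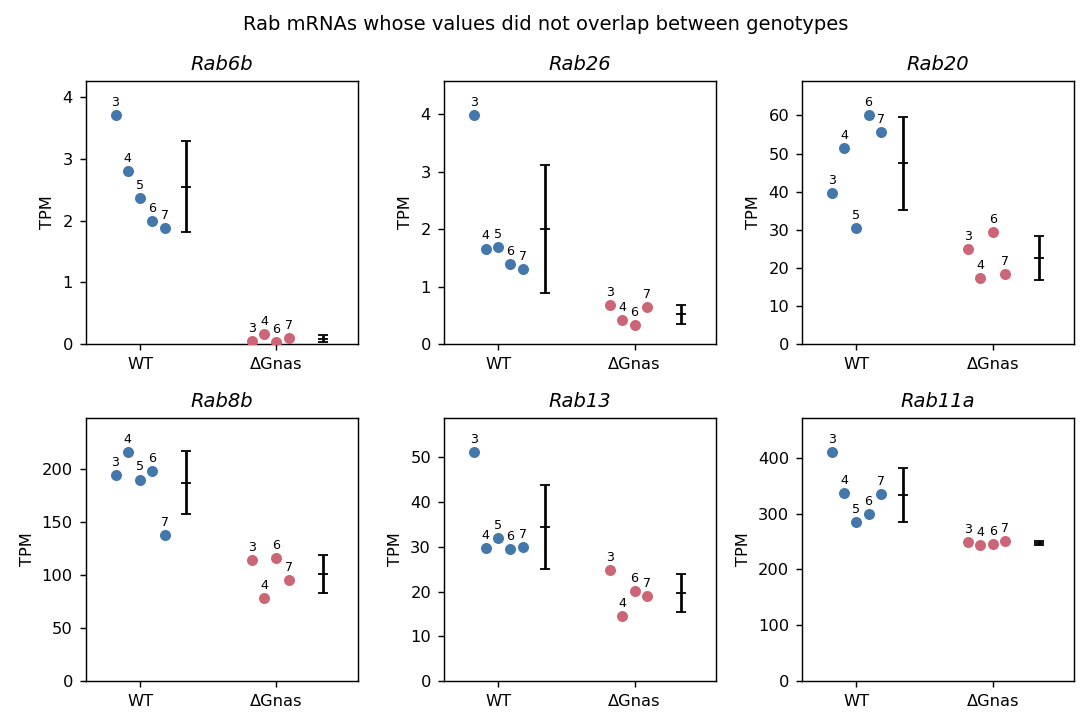
TPM (axes from 0) of the 5 Rab mRNAs that fell and of *Rab11a*, in WT (blue) and Δ*Gnas* (red) libraries, with the replicate number over each point and the mean ± SD beside each group. The groups do not overlap in any panel, and WT replicate 3 is the highest point for *Rab6b*, *Rab26*, *Rab13* and *Rab11a*.

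The promoter sequences of these genes were searched for the site of CREB (cAMP response element-binding protein), the factor that cAMP signalling activates, and for 2 other short motifs. RefSeq promoters (GRCm38.p6) were found for 48 of the 58 members, and for 4 of the 5 that fell, *Rab26* being without one. The 250 bases before each start that RefSeq annotates were searched on both strands for TGACGTCA, the full cAMP response element, for TGACG, its half-site, which the full element contains, for CACGTG, the E-box, and for GAGGAA, the core of PU.1 sites. The motifs were chosen after the expression values were seen. Of all 32851 promoters, 1.55% held the full element, 17.8% the half-site, 6.02% the E-box and 23.3% the PU.1 core. Counted by gene, of those tested for expression that have a promoter in the table, 3.12%, 30.8%, 10.1% and 26.1% held them.

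None of the 4 genes that fell held a full cAMP response element in these windows, and those of *Rab6b* and *Rab8b* held none of the motifs. The gene starts of GENCODE, from which the positions of the genes above were taken, differ from those of RefSeq. By GENCODE the window of *Rab6b* lies wholly within exons of the gene, so the bases before that start were not searched. *Rab13* has 2 RefSeq starts. At the first, the half-site occurred 83 bases before the start on the minus strand and 19 bases before it on the plus strand, and by GENCODE they lie in exons, the former of *Rps27* and the latter of *Rab13* itself. At the second, the PU.1 core occurred 168 bases before the start, outside exons of protein-coding genes. *Rab20* held an E-box 46 bases before its RefSeq start, within its exon by GENCODE. These matches are shown in 30 bases of context, 5′ to 3′ on the strand of the gene, with the match in capitals. They lie at chr3:90213620-90213649, chr3:90213684-90213713, chr3:90220604-90220633 and chr8:11478669-11478698 (minus strand).
Rab13 first start, half-site on the minus strand: tcgtagggaggtCGTCAccgccggaaagga
Rab13 first start, half-site on the plus strand: tgggacaggaagTGACGagccgtgttgctt
Rab13 second start, PU.1 core: tcggtcaaaagaGAGGAAagacagctagcc
Rab20, E-box: cggccgggcaccCACGTGgtcgcagggctg

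The 250 bases before the start of *Rab8b* (chr9:66919706-66919955, GRCm38.p6, minus strand) are shown because it was the most abundant Rab that fell. They hold none of these motifs, and so no capitals.
Rab8b: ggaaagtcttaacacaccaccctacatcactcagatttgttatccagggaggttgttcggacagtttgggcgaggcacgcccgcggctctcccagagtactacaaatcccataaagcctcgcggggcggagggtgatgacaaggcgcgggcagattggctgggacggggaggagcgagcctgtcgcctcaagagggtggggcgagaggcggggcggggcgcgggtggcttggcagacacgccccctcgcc

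Over the 48 members with a promoter, tested or not, 2 held the full element (4.17%), *Rab25* and *Rab5a*. The half-site was held by 24 (50%), the E-box by 5 (10.4%) and the PU.1 core by 8 (16.7%). Of all genes with a promoter, tested or not, 1.77%, 19.8%, 6.86% and 25.85% held these motifs. Whether the shares differ was not tested. *Rab5a* was at 45.8 to 61.9 TPM in WT and 45.7 to 53.6 TPM in Δ*Gnas* DCs, with overlap, and *Rab25* was below 1 TPM in every library.

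*Rab11a*, of the recycling endosome, was the sixth member without overlap. It lies on chromosome 9 from 64715299 to 64737758 (GRCm38, minus strand) and was at 410.2, 337, 285, 299 and 336 TPM in WT replicates 3 to 7 and at 248, 244, 246 and 250.3 TPM in Δ*Gnas* replicates 3, 4, 6 and 7. By TPM, the 4 Δ*Gnas* libraries lay close together, below the lowest WT value. Their TMM factors ran from 0.9477 to 1.088, so their spacing can be wider on the scale of the test. The order of the WT libraries can differ there too. Its log2 fold change was -0.43 ± 0.13 (SE), but it did not pass the test (adjusted p = 0.0696). DESeq2 called it (adjusted p = 0.0075), while the other settings gave 0.056 to 0.171.

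The log2 fold changes of all 6 tested Rabs of recycling endosomes lay below 0, with a median of -0.08, and none passed the test. Of all 11862 genes tested 6002 lay below 0, and of the 45 Rabs 26. By group these were 3 of 3 for late endosomes and lysosomes, 5 of 7 for early endosomes and 6 of 12 for secretion. For the ER and Golgi they were 5 of 14, and for cilium and other roles 1 of 3. *Rab35*, which acts in fast recycling and phagocytosis, was at 66.0, 42.6, 47.0, 48.2 and 33.5 TPM in WT replicates 3 to 7 and at 55.9, 38.2, 47.4 and 39.8 TPM in Δ*Gnas* replicates 3, 4, 6 and 7. The genotypes overlapped widely. The sum over the 10 Rabs of this group was 617 to 901 TPM in WT and 537 to 646 TPM in Δ*Gnas* DCs, and *Rab11a* made up the largest part of it.

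Several Rabs with a known part in antigen traffic did not pass the test. *Rab43*, which acts in cross-presentation by DCs, was at 58.8, 46.2, 50.6, 47.4 and 26.4 TPM in WT replicates 3 to 7 and at 62.1, 37.5, 48.2 and 38.9 TPM in Δ*Gnas* replicates 3, 4, 6 and 7. *Rab22a*, which serves the recycling of MHC class I, was at 24.4, 14.6, 14.5, 17.03 and 11.7 TPM in WT and at 16.2, 14.9, 15.03 and 15.7 TPM in Δ*Gnas* DCs. *Rab34*, a Rab of Golgi and lysosome positioning, was at 7.72, 8.51, 6.55, 6.61 and 6.71 TPM in WT and at 4.56, 5.70, 7.53 and 5.49 TPM in Δ*Gnas* DCs. All 3 overlapped between genotypes. The value of *Rab43* may be uncertain, since 74.8% of its 31-base words occur in other genes annotated by GENCODE, chiefly *Gm45140*. The size of that uncertainty was not measured.

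The Rabs of lysosome-related organelles were led by *Rab32*. It was at 39.0, 51.2, 34.7, 57.1 and 50.01 TPM in WT replicates 3 to 7 and at 58.9, 55.2, 54.9 and 54.4 TPM in Δ*Gnas* replicates 3, 4, 6 and 7. Its relative *Rab38* was at 6.32, 3.50, 3.52, 2.94 and 2.66 TPM in WT and at 6.52, 2.96, 4.41 and 3.10 TPM in Δ*Gnas* DCs. The log2 fold change of *Rab32* was 0.25 ± 0.19 (SE, adjusted p = 0.489), and replicate 3 was the highest library of its genotype for *Rab38* in both.

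*Rab27a*, which docks secretory lysosomes and exosome-releasing endosomes at the plasma membrane, was at 18.6, 13.8, 12.9, 10.7 and 10.4 TPM in WT replicates 3 to 7 and at 11.7, 18.9, 12.2 and 9.35 TPM in Δ*Gnas* replicates 3, 4, 6 and 7. The genotypes overlapped fully. *Rab27b* was under the limit for the test, at 0.459, 0.248, 0.235, 0.173 and 0.225 TPM in WT and at 0.208, 1.08, 0.581 and 0.898 TPM in Δ*Gnas* DCs. In Δ*Gnas* replicates 4, 6 and 7 it lay above each WT value, and in replicate 3 among them. *Rab7b* was not analysed here.

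The 4 Rabs with higher values in Δ*Gnas* DCs at an unadjusted p under 0.05 did not pass the adjusted test: *Rab3d*, *Rab37*, *Rab40c* and *Rab1b*. *Rab3d*, of regulated secretion, was at 15.01 to 26.2 TPM in WT and 25.01 to 30.7 TPM in Δ*Gnas* DCs (log2 fold change 0.41 ± 0.14 (SE), adjusted p = 0.097). *Rab40c*, an adaptor of ubiquitin ligases, was at 7.34 to 9.39 and 8.74 to 12.7 TPM (adjusted p = 0.174). Without Δ*Gnas* replicate 3 both passed the test (adjusted p = 0.033 and 0.0475), so that 2 members were then called higher. Of all 11739 genes tested in that fit, 800 were higher.

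*Rab37*, of the secretory granules of mast cells, was at 0.478, 0.480, 1.34, 0.452 and 0.473 TPM in WT replicates 3 to 7 and at 0.794, 1.65, 1.42 and 1.11 TPM in Δ*Gnas* replicates 3, 4, 6 and 7. WT replicate 5 alone lay among the Δ*Gnas* libraries. The log2 fold change was 0.98 ± 0.42 (SE, adjusted p = 0.185), and without WT replicate 5 it was 1.40 (adjusted p = 0.035). *Rab10* and *Rab21* had lower values in Δ*Gnas* DCs at an unadjusted p under 0.05, with adjusted p of 0.199 and 0.172. *Rab10*, of transport to the plasma membrane, was at 65.8 to 82.7 TPM in WT and at 55.2 to 75.0 TPM in Δ*Gnas* DCs.

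The 13 members under the limit stayed at or below 1.08 TPM in every library. They were *Rab15*, *Rab17*, *Rab25*, *Rab27b*, *Rab33a*, *Rab39*, *Rab39b*, *Rab3b*, *Rab3c*, *Rab40b*, *Rab42*, *Rab4a* and *Rab9b*. Several of them, such as *Rab17* and *Rab25*, are known from epithelia and others, such as *Rab3c* and *Rab39b*, from neurons. For 3 of the 13 at least 1 library was listed at 0.

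Close relatives were expressed in different proportions, and for Rab8 these differed between genotypes. *Rab8b* held 69.4, 67.9, 66.8, 65.1 and 70.1% of the summed *Rab8a* and *Rab8b* TPM in WT replicates 3 to 7 and 49.5, 50.04, 54.3 and 52.2% in Δ*Gnas* replicates 3, 4, 6 and 7. The ratio of *Rab8b* to *Rab8a* was 1.87 to 2.35 in WT and 0.981 to 1.19 in Δ*Gnas* libraries, so that *Rab8b* was the prevailing form in WT and the forms were near parity in Δ*Gnas* DCs. These shares use the *Rab8b* values described above and are no further evidence. *Rab8a* did not pass the test (log2 fold change 0.09 ± 0.16 (SE), adjusted p = 0.793).

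In the Rab6 pair *Rab6a* prevailed, and *Rab6b* held 3.10 to 8.46% in WT and 0.0708 to 0.322% in Δ*Gnas* libraries. *Rab11a* held 74.1 to 78.6% of the Rab11 pair in WT and 70.6 to 74.0% in Δ*Gnas* libraries, a narrow gap. *Rab5c* held 48.7 to 54.3% of the 3 Rab5 genes in WT and 53.2 to 57.1% in Δ*Gnas* libraries, with overlap. One form made up nearly the whole of other pairs: *Rab4b* held 99.5% or more of the Rab4 pair and *Rab9* 99.7% or more of the Rab9 pair in every library. In the Rab1 pair *Rab1* held 55.9 to 65.4% in WT and 59.1 to 62.6% in Δ*Gnas* libraries.

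**Figure D4:**
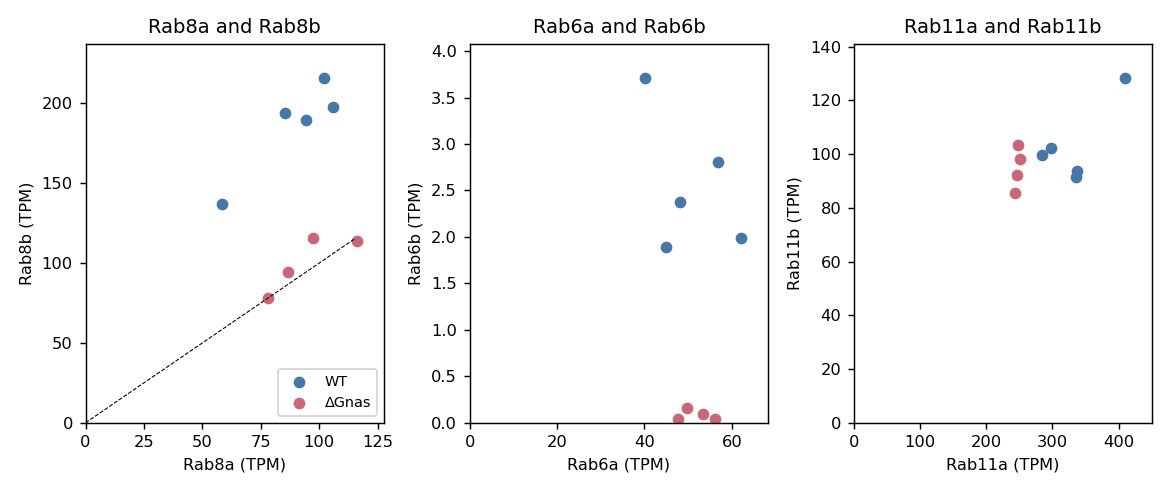
TPM of one gene against its close relative in each library (WT blue, Δ*Gnas* red, axes from 0) for *Rab8a* and *Rab8b*, *Rab6a* and *Rab6b*, and *Rab11a* and *Rab11b*. The dashed line in the first panel marks equal levels; the Δ*Gnas* libraries lie near it, with ratios of 0.981 to 1.19, and the WT libraries lie above it, with ratios of 1.87 to 2.35.

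Of the proteins that act on Rabs, 16 of 151 tested changed: 10 were higher and 6 lower in Δ*Gnas* DCs. This is 10.6% of those tested, near the 9.56% of all genes, and the median log2 fold change was 0.01. They came from a list of 169 genes, 44 GEFs, 38 GAPs, 16 GDIs and prenylation proteins and 71 effectors, of which 168 were in the table. The GEFs and GAPs gave 2 and 4 of the 6 lower genes, and the effectors 7 of the 10 higher ones. By group the median log2 fold change was -0.01 for GEFs, -0.004 for GAPs, -0.01 for GDIs and prenylation proteins and 0.02 for effectors.

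Among the GEFs, 2 of 41 fell (4.88%, against 4.15% of all genes). *Ric1*, which with its partner activates Rab6, was at 61.8, 67.1, 59.1, 53.4 and 42.2 TPM in WT replicates 3 to 7 and at 33.8, 28.5, 39.5 and 35.3 TPM in Δ*Gnas* replicates 3, 4, 6 and 7 (log2 fold change -0.71 ± 0.12 (SE), adjusted p = 0.0079). The genotypes did not overlap, and the call held under each of 20 other settings. *Dennd5a*, a GEF that also binds Rab6, fell by 0.53 ± 0.13 (SE) on the log2 scale, from a mean of 65.5 to 44.9 TPM (adjusted p = 0.035), and was called in 10 of 20 settings.

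Among the GAPs, 4 of 38 fell and 2 rose, where 4.15% of all genes fell and 5.41% rose. *Tbc1d4*, which acts on Rab10 and Rab8 in the traffic of glucose transporters, was at 51.0 to 105 TPM in WT and 29.1 to 48.7 TPM in Δ*Gnas* DCs (log2 fold change -0.94 ± 0.21 (SE), adjusted p = 0.022). *Tbc1d14*, known in autophagy, fell from a mean of 31.4 to 19.5 TPM (adjusted p = 0.019). *Tbc1d30* and *Grtp1* were low, and fell from means of 1.08 and 2.17 TPM to 0.341 and 0.797 TPM (adjusted p = 0.026 and 0.0297). *Tbc1d30* was over 1 CPM in 3 WT and 0 Δ*Gnas* libraries, so that it was tested through WT alone, and it was called in 9 of 14 settings. *Tbc1d16*, a GAP of Rab4, rose from 2.87 to 6.11 TPM (adjusted p = 0.028) and *Tbc1d23*, a relative that tethers vesicles at the Golgi, from 18.1 to 23.9 TPM (adjusted p = 0.029).

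Among the effectors, 7 of 56 rose (12.5%, against 5.41% of all genes) and none fell (4.15% of all genes). Among them are 2 motors: *Myo5a* was at 54.9 to 95.3 TPM in WT and 100.4 to 132 TPM in Δ*Gnas* DCs (log2 fold change 0.58 ± 0.14 (SE), adjusted p = 0.032), and *Myo5b*, which binds Rab11, at 0.191 to 0.872 and 1.36 to 5.14 TPM (log2 fold change 2.26 ± 0.46 (SE), adjusted p = 0.015). Δ*Gnas* replicate 3 was the highest library for *Myo5b*. *Rab11fip4*, which also binds Rab11, rose from a mean of 1.503 to 3.59 TPM (adjusted p = 0.029), and *Sytl1*, which binds Rab27, from 0.543 to 1.73 TPM (adjusted p = 0.014). *Myo5b* and *Sytl1* were over 1 CPM in 0 WT and 4 Δ*Gnas* libraries, so that they were tested only because Δ*Gnas* DCs were high.

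*Plekhm1* and *Wdr91* act with Rab7 on late endosomes and lysosomes. *Plekhm1* rose from a mean of 13.9 to 20.1 TPM (adjusted p = 0.031) and *Wdr91* from 44.0 to 61.9 TPM (adjusted p = 0.015). *Mical1*, which binds Rabs of the Rab8 group and oxidizes actin, rose from 45.6 to 62.9 TPM (adjusted p = 0.032), and was the 1 gene of the 16 whose genotypes overlapped after scaling. The group of GDIs and prenylation proteins gave *Arl6ip5*, of the family of prenylated Rab acceptors, at 105 to 123 TPM in WT and 158 to 191 TPM in Δ*Gnas* DCs (log2 fold change 0.67 ± 0.13 (SE), adjusted p = 0.013). It was called under each of 20 other settings, against 9 for *Plekhm1*, 10 for *Mical1*, 12 for *Myo5a* and for *Tbc1d23*, 14 for *Tbc1d16*, 16 for *Wdr91* and for *Tbc1d14* and 17 for *Tbc1d4*. Of 19 settings *Grtp1* was called in 12, *Rab11fip4* in 13, and *Myo5b* and *Sytl1* in all.

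These counts moved with the libraries used. Of WT, leaving out replicate 3, 5 or 7 gave 6 higher genes, and leaving out replicate 4 or 5 gave 3 lower ones. Of Δ*Gnas*, leaving out replicate 4 gave 5 higher genes, and replicate 6 or 7 gave 4. The lower genes numbered 13 when Δ*Gnas* replicate 3 was left out, 1 for replicate 4 and 2 for replicate 6 or 7. The counts over all genes tested moved as well. Without Δ*Gnas* replicate 3, 4, 6 or 7, 786, 246, 273 and 220 genes were lower, against 492 with every library. Higher genes numbered 800, 334, 338 and 299, against 642. Without WT replicates 3 to 7, 462, 386, 529, 536 and 470 were higher, and 377, 269, 365, 444 and 403 lower.

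**Figure D5:**
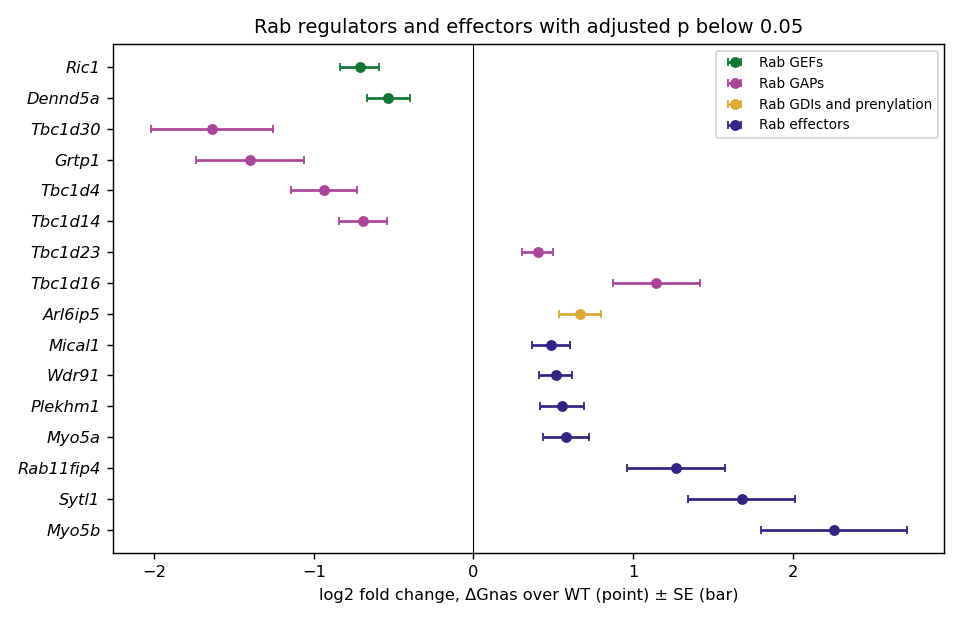
Log2 fold change of Δ*Gnas* over WT (point) with its standard error (bar) for the 16 Rab regulators and effectors with an adjusted p below 0.05. GEFs lie to the left of 0, GAPs on both sides, and *Arl6ip5* and the 7 effectors to the right, up to 2.26 for *Myo5b*.

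Markers of other cell types moved with genotype in the same libraries. Of 13 tested macrophage markers 7 were lower in Δ*Gnas* DCs and none higher, among them *C1qb*, a complement subunit, from a mean of 1003 to 109 TPM, and *C1qa*, another, from 507 to 112 TPM. *Emr1*, *Csf1r* and *Lyz2* were not called, and the summed level of the list, carried by *Lyz2*, was 24892 to 45539 TPM in WT and 22822 to 39897 TPM in Δ*Gnas* DCs. Of 6 tested eosinophil markers *Siglecf* and *Ear1* were higher, with sums of 69.6 to 540.4 and 91.1 to 257 TPM, while *Epx*, their defining peroxidase, stayed below 0.7 TPM. Of 15 tested DC markers *Itgax*, *H2-Ab1* and *Sirpa* were higher and *Zbtb46* and *Ccr7* lower, with sums of 20734 to 33442 and 27955 to 34042 TPM.

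None of 8 tested neutrophil markers and 7 tested monocyte markers passed. Their sums were 212 to 741 and 635 to 1379.5 TPM for neutrophils, and 187 to 853 and 392 to 897 TPM for monocytes, in WT and Δ*Gnas* DCs. Of the mast cell and basophil markers *Kit* was lower, of 5 tested, the sums being 12.96 to 24.9 and 9.07 to 18.1 TPM, and *Mcpt4* and *Tpsab1* were at 0 in every library. Of the T and NK cell markers *Cd3g* was higher, of 2 tested, with sums of 1.13 to 2.68 and 1.89 to 11.04 TPM, and the B cell, erythroid and stromal lists summed to at most 5.48 TPM in any library. The part of these cells in the Rab values was not tested, and fewer cells of a type and less RNA per cell cannot be told apart in bulk samples.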

How the data were processed

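The authors sequenced stranded mRNA libraries, trimmed reads with BBDuk, quantified Ensembl transcripts (GRCm38/mm10) with Kallisto and summed them with tximport. The submitters' processing notes also name FastQC and edgeR. Deposited were, for every gene and library, TPM values and estimated counts. Within a library the deposited estimated count is the TPM times 1 factor (34.3 to 49.4), so it holds no gene length and is not a number of reads. Of 30620 rows, 32 name no gene (0.0843 to 0.121% of the counts) and were left out.

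Groups came from the sample titles. The counts were rounded, genes above 1 CPM in 3 or more libraries (the paper's filter) were kept, and the genotypes were compared, unpaired, with edgeR 4.0.16 (glmQLFit, glmQLFTest, TMM) in R 4.3.3, adjusted by Benjamini-Hochberg over 11862 genes at 0.05. The SE was computed from the log2 fold change and the F statistic. Replicates are cultures. The fit was tested on simulated data. Alternatives were DESeq2 1.42.0, limma-voom and limma-trend (limma 3.58.1, the latter on log2 of TPM plus 1 or 0.1), the exact test of edgeR, factors from the upper quartile, a filter of over 5 CPM or none, sex as labelled (WT replicate 7 as female) or the replicate number as a term, each library left out, and TMM-scaled CPM as the level. Counts rescaled by transcript length were added after the data were seen.

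The members and gene lists were chosen with earlier results of these data known. Values in every library are given for members called, members without overlap between genotypes, the 10 highest members and Rabs of antigen traffic and lysosome-related organelles. Every regulator called is named. *Rab3d*, *Rab37*, *Rab40c*, *Rab10*, *Rab21*, *Rab5a* and *Rab25* were named after their values were seen. Coordinates and shared 31-base words came from GENCODE M21 (GRCm38) and promoters from RefSeq. The shared words were not counted on the Ensembl transcripts that Kallisto used. Tables were made with Python 3.11.15, pandas 2.3.3 and NumPy 2.4.6, and plots with matplotlib 3.10.9.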

Additional observations from a re-analysis of the deposited data

Results flagged for a closer look

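In 5 cases values of named Rabs stood far from the other libraries of their group, by the gap to the nearest value relative to the whole range. Of these, 4 were the highest values of WT replicate 3: *Rab13* at 51.2 TPM (other WT libraries 29.4 to 31.9), *Rab26* at 3.98 TPM (1.30 to 1.69), *Rab38* at 6.32 TPM (2.66 to 3.52) and *Rab27b* at 0.459 TPM (0.173 to 0.248). The other was *Rab37* in WT replicate 5, at 1.34 TPM against 0.452 to 0.480 TPM. These gaps were taken on TPM. The TMM factor was highest for WT replicate 3 (1.212), so the gaps of its values can be smaller on the scale of the test. In all, 56 groups of values were examined, and chance alone gives about 1 in 20.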

How the results depend on the processing

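The calls of *Rab6b*, *Rab8b*, *Rab13* and *Rab26* held under every alternative in which the gene was tested, and that of *Rab20* under all but 4. A filter of over 5 CPM left 3 Rabs lower, since *Rab6b* and *Rab26* were no longer tested. With libraries left out, 4 to 5 Rabs were lower and 0 to 2 higher, 4 to 11 regulators and effectors were higher and 1 to 13 lower. Over all genes tested these fits called 299 to 800 higher and 220 to 786 lower. With limma-trend, at either pseudocount, 4 regulators and effectors were higher and 3 lower, and with DESeq2 15 were lower. Of all 11862 genes tested, limma-trend called 509 higher and 343 lower on log2(TPM + 1). On log2(TPM + 0.1) it called 479 higher and 347 lower. DESeq2 called 952 higher and 817 lower. The cause of these differences was not tested.

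Same-numbered libraries of the genotypes deviated together in replicates 3, 6 and 7 (r = 0.294, 0.248 and 0.163) but not in 4 (r = -0.0423). Libraries of different numbers were not compared in this way, so these values do not settle whether the numbers pair the libraries. The main fit was unpaired. With the replicate block, 1 Rab was called higher, *Rab37* (log2 fold change 1.34, adjusted p = 0.047), and 5 were lower. Of all 11776 genes tested in that fit, 646 were higher and 542 lower.

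Of 536 log2 fold changes of 27 named and tested Rabs under the alternatives, 28 changed sign, each of a gene that was not called. *Rab7* gave 0.003 with upper-quartile factors, 0.0021 with limma-voom, 0.0175 with sex as a covariate, 0.0014 with limma-trend at either pseudocount and 0.0002 with rescaled counts. *Rab27a* gave -0.035 with limma-voom, -0.0019 without a filter, -0.0468 with the replicate block, -0.0404 with sex, and -0.0377 and -0.0413 with limma-trend. With libraries left out, *Rab7* ranged from -0.089 to 0.0867, *Rab27a* from -0.2617 to 0.1317, *Rab22a* from -0.1139 to 0.0302, *Rab35* from -0.1295 to 0.009, *Rab38* from -0.0588 to 0.3344, *Rab43* from -0.0855 to 0.1148 and *Rab6a* from -0.0988 to 0.1137. The members under 1 TPM hold few estimated counts, and whether depth limits them was not tested.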
